A study of Mus musculus with 12 samples.

Results

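Iron handling was followed through 10 genes of the liver: the transferrin cycle (*Tfrc*, *Tfr2*, *Trf*, *Steap3* and *Slc11a2*), the ferritin chains (*Fth1* and *Ftl1*), the iron exporter (*Slc40a1*), the hormone hepcidin (*Hamp*) and its regulator *Hfe*. The genes were chosen by symbol, and all 10 were found among the 17007 rows of the deposited values and passed the filter on low values. They were measured by bulk RNA sequencing in 12 mice, 3 in each of 4 groups. The normal livers came from wild-type C57BL/6 mice. The tumors were c-MYC/MCL1/RictorKO Tsc2KO hepatocellular carcinomas (HCCs), made in mice with floxed *Rictor* and *Tsc2* by hydrodynamic tail vein injection of plasmids for c-MYC, MCL1 and Cre recombinase. Hydrodynamic injection delivers plasmid to only some hepatocytes, so the 2 genes were deleted only in cells that took up Cre, and the other cells of a tumor sample kept them. All 9 tumor-bearing mice shared these oncogenes and deletions, which the normal livers lacked. Tumor-bearing mice received vehicle, MLN0128 or everolimus by gavage, each drug at 1 mg/kg per day for 3 weeks. MLN0128 is an inhibitor of the mTOR kinase in both of its complexes. Everolimus, an analog of rapamycin, targets mTORC1. The age of the mice is not given in the sources used here.

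Iron circulates bound to transferrin, and cells take it up when transferrin binds transferrin receptor 1 and enters endosomes, where a STEAP reductase reduces the iron and a divalent metal transporter moves it to the cytosol. Surplus iron is stored in shells of ferritin heavy and light chains or leaves through ferroportin. Hepatocytes are the main source of transferrin and of hepcidin, the hormone that removes ferroportin from cell surfaces, and they sense iron through HFE, transferrin receptor 2 and signaling by bone morphogenetic proteins (BMPs).

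Messenger RNAs (mRNAs) of this system are known for the iron-responsive element, a short stem and loop bound by iron regulatory proteins when iron is scarce. Its letters were searched in the transcripts of the GENCODE M21 annotation of GRCm38 as an unpaired C, 5 bases, the loop beginning CAGTG with 1 further base, and 5 bases able to pair with the first 5, G with T allowed. They are shown because they tie the uptake, storage and export genes together in sequence. Each line below gives 29 bases of a transcript, 5′ to 3′, with the loop in capitals. The 4 windows of the *Tfrc* 3′ UTR lie on the plus strand, as does the window of the *Fth1* 5′ UTR, while those of the *Ftl1* and *Slc40a1* 5′ UTRs lie on the minus strand.
*Tfrc*, chr16:32631219-32631247: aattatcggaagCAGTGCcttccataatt
*Tfrc*, chr16:32631598-32631626: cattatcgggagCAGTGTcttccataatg
*Tfrc*, chr16:32631663-32631691: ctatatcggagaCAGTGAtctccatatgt
*Tfrc*, chr16:32631710-32631738: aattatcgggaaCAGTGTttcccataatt
*Fth1*, chr19:9982732-9982760: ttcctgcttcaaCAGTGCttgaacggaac
*Ftl1*, chr7:45459779-45459807: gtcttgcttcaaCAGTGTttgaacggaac
*Slc40a1*, chr1:45925465-45925493: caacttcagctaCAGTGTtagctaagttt
Across the 21877 protein-coding genes searched, 31 (0.142%) had such letters in a 5′ UTR and 129 (0.590%) in a 3′ UTR. Of the 10 iron genes, 3 had them in a 5′ UTR and 1 in a 3′ UTR. An element with another loop or with an unpaired base among the searched pairs would be missed. A gene without these letters may therefore still hold an element. The loop letters of *Tfrc* lie at the opposite end of the mRNA from those of the ferritins and ferroportin. A match of letters is a description of the transcript and was not tested as a site.

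Promoter windows of 300 bases (250 before to 50 after the start, RefSeq, GRCm38.p6) were given for 7 of the 10 genes (*Tfrc*, *Tfr2*, *Fth1*, *Ftl1*, *Steap3*, *Hamp* and *Hfe*). On both strands, the E-box CACGTG, the letters MYC is known to bind, was found for 0 of these 7 genes and for 8.09% of the 27025 genes with a window. The letters GGCGCC, the core of the BMP-responsive element, were found for 2 of the 7 and for 13.4% of all genes with a window. In *Hamp* they began 109 bases before the start, and in *Tfrc* 89 bases before it. The 30 bases around each match are shown 5′ to 3′ with the match in capitals, since *Hamp* is a known target of BMP signaling.
*Hamp*, chr7:30944121-30944150, minus strand: tcccgcctgtttGGCGCCactattttcttg
*Tfrc*, chr16:32608795-32608824, plus strand: acctgccgccttGGCGCCttttctaggcta
These are matches of letters only.

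The values are fragments per kilobase of transcript, scaled for library size (FPKM), which are per length and can be compared between genes. Multiplying them by exon length gave back whole reads, 17094832 to 25107600 per library. The authors' scaling between libraries set normal livers at factors of 0.585 to 0.596 of their total reads and tumors at 1.10 to 1.37, so differences between tumors and normal livers depend on it. Differences were tested with limma's moderated test on log2(FPKM + 1) over 14397 genes, with Benjamini-Hochberg adjustment and a threshold of 0.05, and fold changes are on that scale. MLN0128 replicates 1 and 2 held *Xist* RNA above 1 FPKM and the other 10 libraries did not, so comparisons with MLN0128 also set mice of different X content against each other. Everolimus replicate 2 stood apart with higher sums of liver cell markers. Its hepatocyte markers summed to 8111 FPKM against 3261 and 3542 in the other everolimus libraries. *Alb* alone gave 4860 FPKM of that sum, and *Cps1*, *Serpina1c* and *G6pc* were not highest in this library. Its Kupffer cell or macrophage markers summed to 250.5 FPKM against 95.4 and 102.4.

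**Figure D1:**
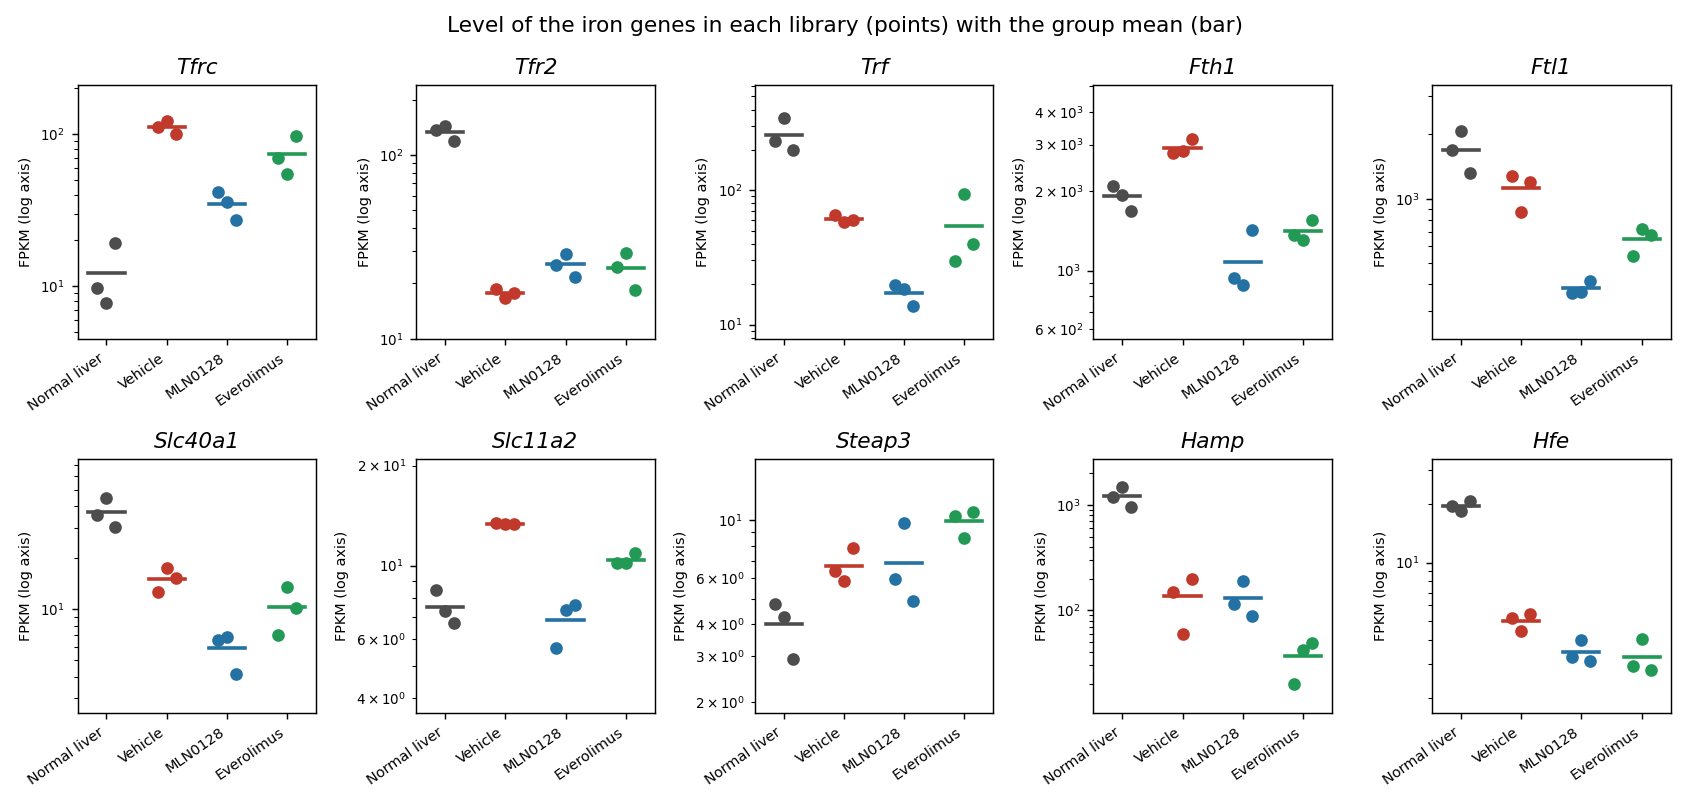
FPKM of the 10 iron genes on log axes, 1 panel a gene, with a point for each of the 3 libraries of a group and a bar at the group mean. *Tfrc* was highest with vehicle (99.2 to 122 FPKM) and lowest in normal liver (7.76 to 19.3 FPKM), while *Hamp* ran from 949 to 1470 FPKM in normal liver and from 20 to 48.9 FPKM with everolimus.

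The first question was how the iron genes of vehicle-treated tumors compare with those of normal liver. Transferrin receptor 1, the divalent metal transporter, the endosomal reductase and ferritin heavy chain rose, and transferrin receptor 2, transferrin, ferritin light chain, ferroportin, hepcidin and HFE fell. Thus 4 of 10 genes were higher and 6 lower, where 36.0% of all tested genes were higher and 33.0% lower. That balance depends on the scaling, at 5 higher and 3 lower with TPM scaling, 4 and 4 with plain library totals and 5 and 5 with quantile normalization. Against a fold change of 1.5, limma's treat test called 6 of the 10 (*Tfrc*, *Tfr2*, *Trf*, *Slc40a1*, *Hamp* and *Hfe*) and 32.7% of all tested genes. The 3 tumors lay entirely above or below the 3 normal livers for 10 of 10 iron genes and for 74.1% of all tested genes. The median log2 fold change was -0.91 over the 10 genes and 0.06 over all tested genes. The all-gene median was 1.00 with TPM scaling, 0.62 with plain library totals and 0.04 with quantile normalization. Counts of genes higher and lower than normal liver under TPM scaling and plain library totals, here and in the lists below, carry that shift.

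*Tfrc* (ENSMUSG00000022797.16, chr16:32608920-32632794) encodes transferrin receptor 1, which imports transferrin-bound iron. It measured 9.66, 7.76 and 19.3 FPKM in the normal livers and 111, 122 and 99.2 FPKM with vehicle. Every tumor held over 5 times the *Tfrc* RNA of the highest normal liver. The rise was 9-fold (log2 fold change 3.17, SE 0.29, adjusted p = 2.16e-06).

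*Tfr2* (ENSMUSG00000029716.13, chr5:137569840-137587481), the receptor with which hepatocytes sense transferrin rather than import it, went the other way. It measured 136, 144 and 119 FPKM in normal liver and 18.7, 16.7 and 17.8 FPKM with vehicle. The groups were far apart and each was tight. The fall was 7.14-fold (log2 fold change -2.84, SE 0.16, adjusted p = 6.04e-08). In normal liver *Tfr2* was the more abundant receptor and in the tumors *Tfrc* was. The ratio of *Tfrc* to *Tfr2* FPKM within a library, which a factor applied to a whole library cannot change (quantile normalization is no such factor and can) and which was chosen after the values were seen, averaged 0.0957 ± 0.0582 (SD, n = 3) in normal liver and 6.27 ± 0.914 (n = 3) with vehicle. The 2 groups did not overlap, and the exact two-sided permutation test of 3 against 3 libraries gave p = 0.1, the smallest it allows.

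*Trf* (ENSMUSG00000032554.15, chr9:103204001-103230444) encodes transferrin itself, a secreted product of hepatocytes. It measured 233, 346 and 201 FPKM in normal liver and 65.7, 57.8 and 60.1 FPKM with vehicle. All tumors lay below all normal livers, a 4.09-fold fall (log2 fold change -2.03, SE 0.34, adjusted p = 0.00023). With TPM scaling the log2 fold change was -0.85 and was not called (adjusted p = 0.0655). The annotated gene *Gm20425* shares 2108 of the 3320 exon bases of *Trf* on the same strand, so reads of the 2 genes may not be told apart. The 10 hepatocyte markers (*Alb*, *Apoa1*, *Ttr* and others) all fell in the tumors too with the authors' scaling (8 with TPM scaling, 8 with plain library totals and 7 with quantile normalization), from summed levels of 83033 to 103021 FPKM in normal liver to 3997 to 6188 FPKM with vehicle. Their part in the falls of *Trf*, *Tfr2*, *Hamp* and *Hfe* was not tested, and in bulk samples fewer cells of a type and less RNA per cell cannot be told apart.

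*Steap3*, *Slc11a2* and *Fth1* rose by less. *Steap3* (ENSMUSG00000026389.16, chr1:120190757-120272705), the endosomal ferrireductase, measured 4.75, 4.27 and 2.92 FPKM in normal liver and 6.40, 5.87 and 7.83 FPKM with vehicle (1.56-fold, log2 fold change 0.64, SE 0.22, adjusted p = 0.0204). *Slc11a2* (ENSMUSG00000023030.16, chr15:100387898-100425072), the divalent metal transporter DMT1, measured 8.45, 7.29 and 6.74 FPKM in normal liver and 13.4, 13.3 and 13.3 FPKM with vehicle (1.69-fold, log2 fold change 0.76, SE 0.12, adjusted p = 0.000126). The vehicle libraries were nearly level for *Slc11a2*, and neither gene overlapped between the groups. The *Steap3* call was lost without normal liver replicate 3 (adjusted p = 0.0894) or vehicle replicate 3 (0.0761). The annotated gene *Gm5475* overlaps 402 exon bases of *Slc11a2* on the opposite strand.

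The ferritin chains parted. *Fth1* (ENSMUSG00000024661.7, chr19:9980598-9985098), the heavy chain that oxidizes iron for storage, measured 2100, 1940 and 1690 FPKM in normal liver and 2780, 2840 and 3160 FPKM with vehicle. *Ftl1* (ENSMUSG00000050708.16, chr7:45457944-45459884), the light chain that helps form the mineral core, measured 1680, 2070 and 1320 FPKM in normal liver and 1280, 872 and 1200 FPKM with vehicle. They were the 2 most abundant of the 10 genes in every group. *Fth1* rose 1.54-fold (log2 fold change 0.62, SE 0.23, adjusted p = 0.0293), and *Ftl1* fell 1.51-fold (log2 fold change -0.59, SE 0.22, adjusted p = 0.0314) with the highest tumor just under the lowest normal liver. The *Ftl1* direction rests on the authors' scaling: with plain library totals the log2 fold change was 0.34 (adjusted p = 0.188), with TPM scaling 0.61 (adjusted p = 0.0417) and with quantile normalization 0.65 (adjusted p = 0.0356). Without normal liver replicate 1 or 2 or vehicle replicate 2 the *Ftl1* call was lost (adjusted p from 0.0716 to 0.137). *Fth1* was higher under each of these scalings, but its call was lost in 7 of 24 alternatives, 5 of which left out 1 library (normal liver replicate 2 or 3, or any vehicle library, with adjusted p from 0.0545 to 0.101). The annotated gene *Gm10252* overlaps 355 of the 1340 exon bases of *Ftl1* on the opposite strand, and the microRNA gene *Gm22133* shares 109 on the same strand. Ferritin genes have processed copies elsewhere in the genome, and how the authors assigned shared reads is not given in the sources used here.

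The ratio of *Fth1* to *Ftl1* within a library, as deposited, is likewise the same under any factor for a whole library, though not under quantile normalization, and was also chosen after the values were seen. It was 1.25, 0.937 and 1.28 in normal liver and 2.17, 3.26 and 2.63 with vehicle. Every tumor had more heavy chain RNA per light chain RNA than any normal liver, with the ratio of the geometric group means at 2.32. The exact two-sided permutation test gave p = 0.1, the smallest that 3 against 3 libraries allow.

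**Figure D2:**
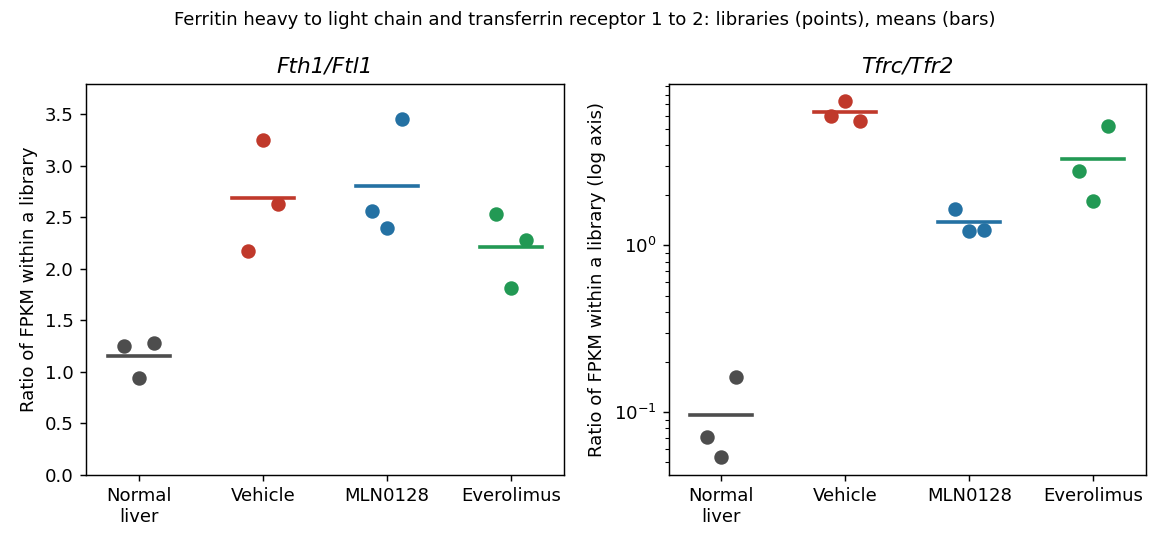
Ratio of *Fth1* to *Ftl1* FPKM (left, linear axis from 0) and of *Tfrc* to *Tfr2* FPKM (right, log axis) within each library, with points for the 3 libraries of a group and bars at the group means. The *Fth1* to *Ftl1* ratio averaged 1.16 in normal liver and 2.69, 2.80 and 2.21 with vehicle, MLN0128 and everolimus, and the *Tfrc* to *Tfr2* ratio averaged 0.0957, 6.27, 1.37 and 3.30 in the same order.

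*Slc40a1* (ENSMUSG00000025993.10, chr1:45908068-45926523), which encodes ferroportin, the iron exporter, measured 35.5, 45.0 and 30.1 FPKM in normal liver and 12.5, 17.5 and 15.1 FPKM with vehicle. The groups did not overlap, a 2.35-fold fall (log2 fold change -1.23, SE 0.24, adjusted p = 0.000591). It was no longer called with plain library totals (-0.33) or TPM scaling (-0.09). Kupffer cells, the macrophages of the liver, are rich in ferroportin, and 10 of 12 of their markers fell in the tumors while *Cd68* rose, though the falls were 4 with TPM scaling, 5 with plain library totals and 7 with quantile normalization. Those markers summed to 370.4 to 458.5 FPKM in normal liver and to 142.4 to 196.7 FPKM with vehicle, and the defining markers *Clec4f* and *Vsig4* were low but not at 0 (2.07 to 11.6 and 1.79 to 3.41 FPKM with vehicle). Their part in the fall of *Slc40a1* was not tested.

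*Hamp* (ENSMUSG00000050440.8, chr7:30942368-30944032), the hepcidin gene, measured 1190, 1470 and 949 FPKM in normal liver and 148, 59.5 and 199 FPKM with vehicle. The highest tumor lay well under the lowest normal liver, although the tumors varied among themselves by over 3 times. The fall was 9.74-fold (log2 fold change -3.28, SE 0.45, adjusted p = 4.78e-05). *Hfe* (ENSMUSG00000006611.15, chr13:23702034-23710854), whose product promotes hepcidin expression, measured 19.7, 18.5 and 20.8 FPKM in normal liver and 5.17, 4.44 and 5.44 FPKM with vehicle. The groups were again apart, a 3.44-fold fall (log2 fold change -1.78, SE 0.13, adjusted p = 4.48e-07). *Tfrc*, *Tfr2*, *Hamp* and *Hfe* kept their direction and their call against normal liver in all 24 alternatives to the test, filter, scaling and libraries used.

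**Figure D3:**
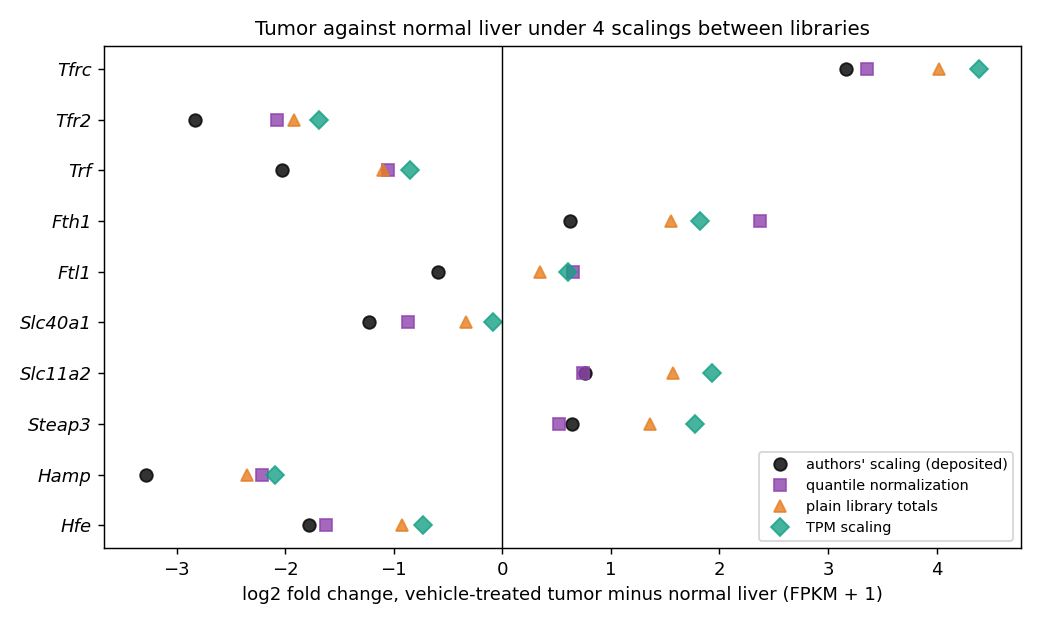
Log2 fold change of each iron gene in vehicle-treated tumors against normal liver (x axis, FPKM + 1) under 4 ways of scaling the libraries, 1 symbol a scaling. *Ftl1* crosses 0, from -0.59 with the authors' scaling to 0.65 with quantile normalization, and *Slc40a1* reaches -0.09 with TPM scaling, while *Tfrc* stays above 0 and *Tfr2*, *Hamp* and *Hfe* stay below it.

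Genes that control hepcidin were followed as a list of 25 tested genes. Of these, 8 were higher and 12 lower with vehicle against normal liver (median log2 fold change -0.35) with the authors' scaling, and 7 and 13 with quantile normalization, but the balance turned to 13 higher and 4 lower with TPM scaling and to 11 and 4 with plain library totals. The list as a whole therefore has no direction against 0 that holds across scalings. Its medians were 0.64 with TPM scaling and 0.35 with plain library totals, under the all-gene medians of 1.00 and 0.62. *Tmprss6*, the protease that restrains hepcidin by cleaving hemojuvelin, fell with *Hamp*, from 288, 296 and 231 FPKM to 31.9, 10.3 and 34.5 FPKM (log2 fold change -3.52, adjusted p = 4.26e-05). The hepcidin-inducing ligand *Bmp2* measured 7.62, 7.75 and 7.93 FPKM in normal liver and 0.866, 0.947 and 1.04 FPKM with vehicle. Both *Tmprss6* and *Bmp2* were apart in the groups, and *Bmp2* fell by 2.17 on the log2 scale (adjusted p = 1.93e-07). *Bmp6*, the other main ligand, fell by 0.84 (adjusted p = 0.00171) but had no call with TPM scaling (-0.33, adjusted p = 0.358) or plain library totals (-0.33, adjusted p = 0.139), while *Tmprss6* and *Bmp2* were called lower under every scaling. In liver both ligands come chiefly from endothelial cells, 7 of whose 10 markers fell as well (6 to 8 under the other scalings, with 2 higher under TPM scaling and plain library totals), from sums of 97.3 to 116.2 FPKM to sums of 20.3 to 29.2 FPKM, and their part in the result was not tested.

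*Erfe*, which encodes the erythroid hormone erythroferrone, an inhibitor of hepcidin expression, and *Gdf15*, a stress-induced cytokine, both rose. *Erfe* measured 0.0988, 0.0644 and 0 FPKM in normal liver and 3.55, 5.24 and 4.07 FPKM with vehicle (log2 fold change 2.31, adjusted p = 6.72e-06). *Gdf15* was at 0.951, 2.55 and 2.79 FPKM and 11.7, 14.4 and 10.8 FPKM (log2 fold change 2.15, adjusted p = 1.16e-05). Of 6 tested erythroid markers, 5 were lower with vehicle and 0 higher (4 or 5 lower under the other scalings). Which cells the *Erfe* RNA came from was not tested. Hemojuvelin, listed under its older symbol *Hfe2*, measured 34.0, 25.1 and 28.0 FPKM in normal liver and 32.9, 19.7 and 25.1 FPKM with vehicle, where the groups overlapped and no difference was called (log2 fold change -0.18, 95% interval -0.94 to 0.59, adjusted p = 0.669), though with TPM scaling it was higher (1.00, adjusted p = 0.0122). *Id1*, a target of BMP signaling, was slightly higher in the tumors (0.39, adjusted p = 0.0467, and without a call at 0.30 with quantile normalization), and *Atoh8*, another target, was lower (-1.91, adjusted p = 1.74e-05). *Erfe*, *Gdf15* and *Atoh8* kept their direction and call under every scaling. *Smad7*, which feeds back on BMP signaling, had no call (-0.29, adjusted p = 0.223), but was higher with TPM scaling (0.66, adjusted p = 0.022). The all-gene median with TPM scaling was 1.00, level with *Hfe2* and above *Smad7*. *Gdf15* and *Atoh8* were named after their values were seen.

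**Figure D4:**
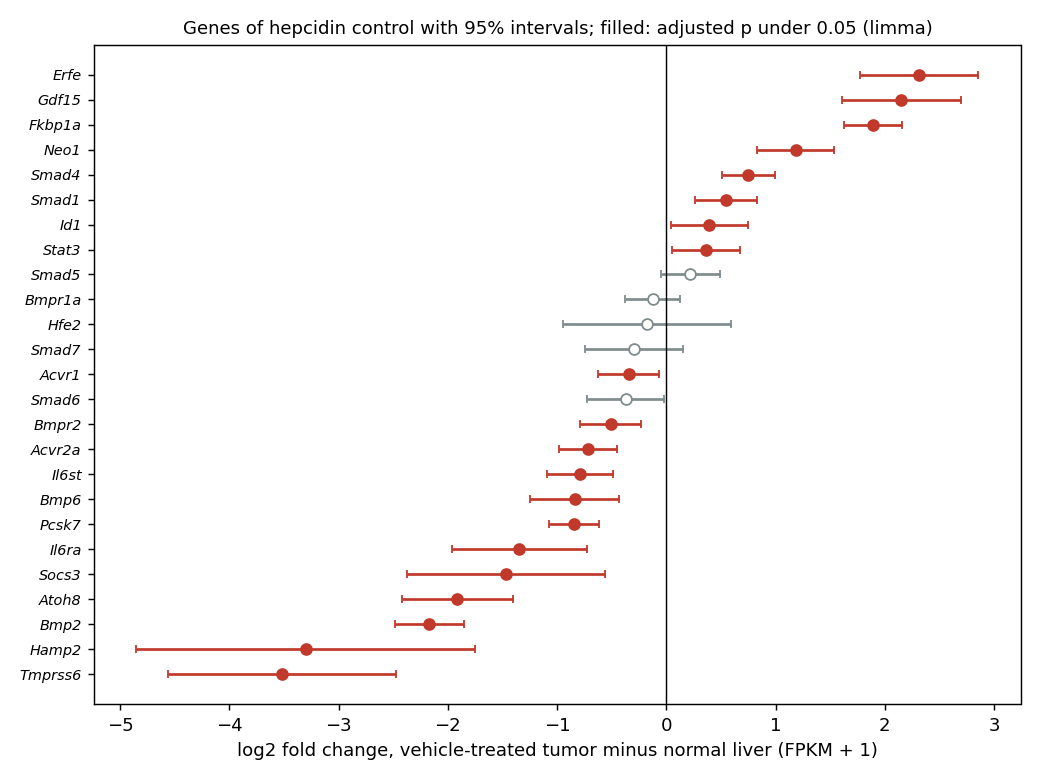
Log2 fold change of the 25 tested genes of hepcidin control in vehicle-treated tumors against normal liver (x axis, FPKM + 1) with 95% intervals, filled where the adjusted p was under 0.05. *Tmprss6* (-3.52), *Hamp2* (-3.30) and *Bmp2* (-2.17) were lowest and *Erfe* (2.31) and *Gdf15* (2.15) highest, with 8 genes higher, 12 lower and 5 not called.

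The other iron lists were also set against normal liver in vehicle-treated tumors. Of 12 genes of heme synthesis and breakdown, 11 were lower and 1 higher (median log2 fold change -0.99) with the authors' scaling, against 9 and 1 with quantile normalization, 5 and 2 with plain library totals and 5 and 5 with TPM scaling. *Alas1*, the rate-limiting enzyme of heme synthesis in liver, measured 236, 199 and 202 FPKM in normal liver and 15, 12.5 and 20 FPKM with vehicle (log2 fold change -3.68, adjusted p = 7.84e-08). Next in size were *Blvrb* (-2.16), *Urod* (-2.15) and *Alad* (-2.08), called lower under every scaling. The gene that rose was *Hmox1*, heme oxygenase, which releases iron from heme. It measured 13.5, 22.8 and 7.88 FPKM in normal liver and 28.8, 45.2 and 50.4 FPKM with vehicle (log2 fold change 1.51, adjusted p = 0.0042), and all tumors lay above all normal livers. Of 15 tested genes of iron and heme uptake outside the transferrin cycle, 4 were higher and 9 lower, against 6 and 6 with TPM scaling, 6 and 7 with plain library totals and 4 and 8 with quantile normalization. The called genes of this list with the largest log2 fold changes were *Steap4*, a metal reductase (-2.91, adjusted p = 0.000144), the hemoglobin carrier *Hp* (-2.90, adjusted p = 0.000467, and without a call at 0.0578 with quantile normalization), the receptor *Lrp1*, which takes up heme bound to hemopexin (-2.48, adjusted p = 5.17e-07), and *Lcn2*, which binds iron-carrying siderophores (2.36, adjusted p = 0.0149). *Lcn2* measured 1.38, 1.18 and 1.94 FPKM in normal liver and 13.8, 5.9 and 19.1 FPKM with vehicle, with no overlap. *Slc39a14*, which imports iron not bound to transferrin, fell from 29.9, 29.1 and 33.0 FPKM to 7.97, 8.70 and 8.36 FPKM, with no overlap. *Alas1* and *Slc39a14* stayed lower and *Hmox1* higher, each with its call, under every scaling.

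Of 6 tested storage and export partners, 3 were higher (*Pcbp1*, *Pcbp2* and *Flvcr1*) and 3 lower (*Ncoa4*, *Cp* and *Abcg2*) with the authors' scaling, against 4 and 1 with TPM scaling or plain library totals and 3 and 2 with quantile normalization. *Ncoa4*, the receptor that takes ferritin to the lysosome, measured 18.8, 17 and 21.4 FPKM in normal liver and 13.1, 14.6 and 14.2 FPKM with vehicle (log2 fold change -0.42, adjusted p = 0.00649), but its direction turned with TPM scaling (0.73, adjusted p = 0.000742) and plain library totals (0.46, adjusted p = 0.00346). Both of these values lay under the all-gene medians of the same scalings, 1.00 and 0.62. *Cp*, the ferroxidase ceruloplasmin that works with ferroportin, fell by 2.38 on the log2 scale (adjusted p = 0.00042) and stayed lower under every scaling. Both genes of the proteins that bind iron-responsive elements fell with the authors' scaling, *Aco1* by 1.02 (adjusted p = 4.29e-05) and *Ireb2* by 0.52 (adjusted p = 0.000817), but *Ireb2* turned higher with TPM scaling (0.63, adjusted p = 0.000248) and plain library totals (0.36, adjusted p = 0.00397), and *Aco1* had no call in either (0.15 and -0.11). Under these 2 scalings both genes stayed below the all-gene medians of 1.00 and 0.62. *Fbxl5*, which degrades the product of *Ireb2*, gave a log2 fold change of 0.03 (95% interval -0.21 to 0.28, adjusted p = 0.797), a gene named after its values were seen. Of 22 tested genes of mitochondrial iron and iron-sulfur clusters, 8 were higher and 8 lower, with a median of -0.03, against 20 and 0 with TPM scaling, 16 and 1 with plain library totals and 8 and 7 with quantile normalization. The list medians were 1.11 with TPM scaling and 0.81 with plain library totals, where the all-gene medians were 1.00 and 0.62. The largest differences called there were in *Iscu* (-1.44), *Bola3* (-1.18), *Nubp2* (0.84) and *Hscb* (0.83), and with TPM scaling *Iscu* (-0.26) and *Bola3* (-0.06) were not called.

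The second question was what inhibition of the mTOR kinase with MLN0128 did to these genes. With MLN0128, transferrin receptor 1, transferrin, both ferritin chains, ferroportin, the divalent metal transporter and HFE fell against vehicle, and transferrin receptor 2 rose. Thus 1 of 10 genes was higher and 7 lower, where 14.9% of all tested genes were higher and 17.1% lower. The groups did not overlap for 8 of the 10, against 45.5% of all tested genes. The treat test against a fold change of 1.5 called 1 of the 10, *Ftl1*, and 2.13% of all tested genes. By the moderated test 8 of the 10 had an unadjusted p under 0.05, for which the share of all tested genes is not given here. The median log2 fold change was -1.05 over the iron genes and -0.01 over all tested genes.

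The ferritins fell together. *Fth1* was at 935, 883 and 1430 FPKM with MLN0128, under every vehicle library (2780 to 3160 FPKM), a 2.76-fold fall (log2 fold change -1.47, SE 0.23, adjusted p = 0.000911). *Ftl1* was at 365, 369 and 414 FPKM against 872 to 1280 FPKM with vehicle, a 2.88-fold fall (log2 fold change -1.53, SE 0.22, adjusted p = 0.00064, by treat 0.0378). The MLN0128 libraries were tight for *Ftl1*, and replicate 3 was the highest for both chains. The *Fth1* to *Ftl1* ratio was 2.56, 2.39 and 3.45 with MLN0128 and overlapped with vehicle (exact permutation p = 0.8).

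In the transferrin cycle, *Tfrc* was at 41.8, 35.5 and 27.0 FPKM with MLN0128, a 3.16-fold fall from vehicle (log2 fold change -1.66, SE 0.29, adjusted p = 0.00182). All 3 libraries lay between the vehicle libraries and the normal livers. *Trf* was at 19.7, 18.3 and 13.8 FPKM, a 3.43-fold fall (log2 fold change -1.78, SE 0.34, adjusted p = 0.00271). *Slc11a2* was at 5.66, 7.34 and 7.59 FPKM, a 1.83-fold fall (log2 fold change -0.88, SE 0.12, adjusted p = 0.000475). For *Trf* and *Slc11a2*, all MLN0128 libraries lay under all vehicle libraries. The hepatocyte markers summed to 1917 to 4252 FPKM with MLN0128 and to 3997 to 6188 FPKM with vehicle, with overlap. Of the 10 markers, 2 were called higher with MLN0128 and 3 lower (2 and 2 under each other scaling). Their part in the fall of *Trf* was not tested. *Tfr2* was at 25.3, 29 and 21.8 FPKM, all above vehicle, a 1.40-fold rise (log2 fold change 0.49, SE 0.16, adjusted p = 0.0395). That rise lost its call in 9 of 24 alternatives (adjusted p from 0.00843 to 1), and the fall of *Hfe* in 9. Of these, 7 for *Tfr2* left out 1 library (normal liver replicate 1, everolimus replicate 1, MLN0128 replicate 1 or 2 or any vehicle library, adjusted p from 0.0517 to 0.121).

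*Slc40a1* was at 6.56, 6.88 and 4.18 FPKM with MLN0128, a 2.35-fold fall from vehicle (log2 fold change -1.23, SE 0.24, adjusted p = 0.00261). The groups did not overlap. Of the Kupffer cell or macrophage markers, 5 of 12 fell too (*Cd68*, *Cd5l*, *C1qa*, *C1qb* and *C1qc*), with sums of 55.7 to 89.7 FPKM against 142.4 to 196.7 FPKM with vehicle, and their part in the fall was not tested. *Hfe* was at 3.26, 3.99 and 3.08 FPKM, just under the vehicle libraries (log2 fold change -0.44, SE 0.13, adjusted p = 0.0269), a call lost without replicate 1 or 3 of either group (adjusted p from 0.0724 to 0.095).

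*Hamp* and *Steap3* were not called. *Hamp* was at 114, 191 and 88.3 FPKM with MLN0128, within the vehicle range, with a log2 fold change of 0.04 (95% interval -0.94 to 1.03, adjusted p = 0.953). *Steap3* was at 5.93, 9.81 and 4.89 FPKM (log2 fold change -0.01, 95% interval -0.48 to 0.47, adjusted p = 0.982). Both overlapped with vehicle, and the interval for *Hamp* is wide.

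The third question was what everolimus did. Against vehicle, both ferritin chains, hepcidin and HFE fell, and the other 6 genes were not called. Thus 0 of 10 genes were higher and 4 lower by the moderated test, where 3.78% of all tested genes were higher and 6.05% lower. The treat test against a fold change of 1.5 called 0 of the 10 and 0.604% of all tested genes. By the moderated test 8 of the 10 had an unadjusted p under 0.05, again without a share of all tested genes to set it against. The groups did not overlap for 7 of the 10, against 32.4% of all tested genes. The median log2 fold change was -0.53 over the iron genes and 0.03 over all tested genes. The count of 4 fell to 0 without vehicle replicate 3, to 0 without everolimus replicate 1, to 1 without vehicle replicate 1 and to 2 without normal liver replicate 1.

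*Hamp* was lower with everolimus than in any other group, at 20, 42.5 and 48.9 FPKM against 59.5 to 199 FPKM with vehicle. The groups did not overlap, though the lowest vehicle library was close to the highest everolimus library. The fall was 3.41-fold (log2 fold change -1.77, SE 0.45, adjusted p = 0.0319), and the adjusted p ranged from 0.00675 to 0.617 over 24 alternatives, 6 of which ended the call, among them leaving out vehicle replicate 1 (0.107), vehicle replicate 3 (0.131) or everolimus replicate 1 (0.13). The summed hepatocyte markers ran from 3261 to 8111 FPKM with everolimus and from 3997 to 6188 FPKM with vehicle. The overlap came from everolimus replicate 2 (8111 FPKM), as replicates 1 and 3 (3542 and 3261 FPKM) lay under every vehicle library. Of the 10 markers, 1 was called higher with everolimus and 2 lower. Their part in the fall of *Hamp* was not tested. *Hfe* was at 2.90, 4.02 and 2.78 FPKM, under all vehicle libraries (log2 fold change -0.52, SE 0.13, adjusted p = 0.0343), a call lost in 9 of 24 alternatives (adjusted p from 0.0113 to 1), among them leaving out normal liver replicate 1 or replicate 1 or 3 of vehicle or everolimus (0.0534 to 0.131).

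*Hamp2*, a close copy of *Hamp* that may share reads with it, was at 32.9, 61.1 and 73.3 FPKM in normal liver, at 4.40, 1.63 and 10.5 FPKM with vehicle and at 3.02, 10.5 and 0.143 FPKM with MLN0128. With everolimus it was listed at 0 FPKM in replicate 1, and at 0.17 and 0.0688 FPKM in the others. The recovered reads behind these levels were 0, 3 and 1 with everolimus, 50, 130 and 2 with MLN0128 and 20 to 142 with vehicle. Every everolimus library lay under every vehicle library, while the adjusted p was 0.0575. In contrast, *Tmprss6* overlapped between everolimus (12.8, 20.5 and 14.7 FPKM) and vehicle (10.3 to 34.5 FPKM), with no call (adjusted p = 0.544).

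*Fth1* was at 1370, 1310 and 1550 FPKM with everolimus, a 2.08-fold fall from vehicle (log2 fold change -1.05, SE 0.23, adjusted p = 0.0153). *Ftl1* was at 540, 722 and 680 FPKM, a 1.71-fold fall (log2 fold change -0.78, SE 0.22, adjusted p = 0.0475). Neither chain overlapped with vehicle, but the *Ftl1* call was lost in 14 of 24 alternatives (adjusted p from 0.0265 to 1) and the *Fth1* call in 4 (0.00404 to 1). Leaving out vehicle replicate 3 or everolimus replicate 1 ended both calls (0.0695 and 0.061 for *Fth1*), and for *Ftl1* so did leaving out replicate 1 of any other group or everolimus replicate 3 (0.0674 to 0.177 over these 6 libraries). The *Fth1* to *Ftl1* ratio was 2.54, 1.81 and 2.28 and overlapped with vehicle (exact permutation p = 0.4).

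Among the genes with no call, *Tfrc* was at 69.1, 54.4 and 96.8 FPKM with everolimus, all under the lowest vehicle library at 99.2 FPKM (log2 fold change -0.62, 95% interval -1.26 to 0.02, adjusted p = 0.201). *Slc11a2* was at 10.2, 10.2 and 10.9 FPKM, also all under vehicle (-0.33, interval -0.58 to -0.07, adjusted p = 0.101). *Steap3* was at 10.4, 8.57 and 10.8 FPKM, all above vehicle (0.51, interval 0.03 to 0.98, adjusted p = 0.161). These 3 genes lay apart from vehicle without passing the adjusted threshold. *Tfr2* (24.6, 29.4 and 18.5 FPKM) and *Slc40a1* (7.07, 13.5 and 10.2 FPKM) overlapped with vehicle, with log2 fold changes of 0.40 (adjusted p = 0.136) and -0.54 (adjusted p = 0.168).

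*Trf* was at 29.6, 93.1 and 39.8 FPKM with everolimus. Replicate 2 lay above every vehicle library and the others below (log2 fold change -0.34, 95% interval -1.09 to 0.40, adjusted p = 0.565). Without replicate 2, the library with the higher marker sums, the log2 fold change was -0.81 (adjusted p = 0.0472). The hepatocyte product *Cp* followed the same order, at 20.3, 92.4 and 21.1 FPKM, as did *Hp*, at 229, 1200 and 247 FPKM. *Lcn2* was also highest in replicate 2, at 6.9, 72.1 and 13.3 FPKM. The ratio of *Tfrc* to *Tfr2* was 2.81, 1.85 and 5.23 with everolimus and 1.65, 1.22 and 1.24 with MLN0128, and both groups lay under all vehicle libraries (5.57 to 7.31). Each exact permutation test gave p = 0.1, the smallest possible.

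**Figure D5:**
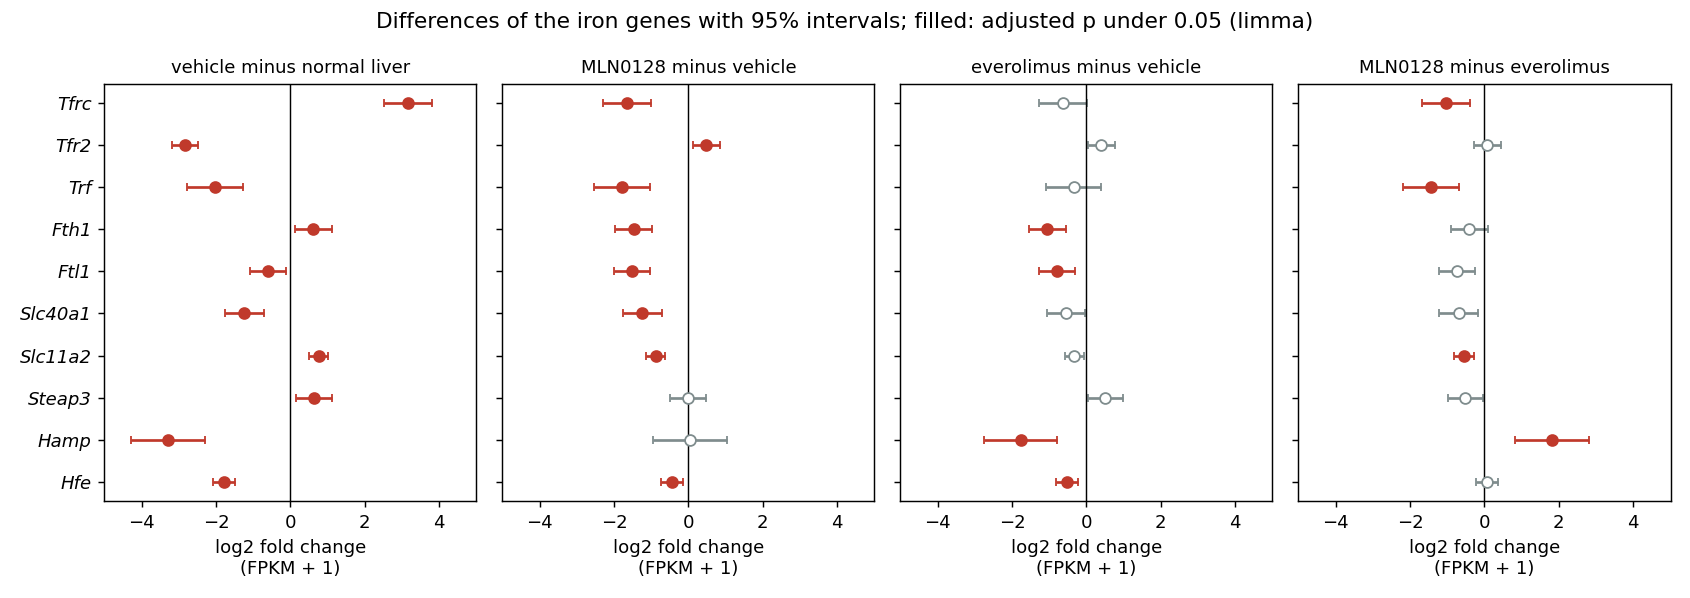
Log2 fold change (x axis, FPKM + 1) of the 10 iron genes in 4 comparisons with 95% intervals, filled where limma's adjusted p was under 0.05. With MLN0128 against vehicle 7 genes lie left of 0 and 1 right of it among the filled points, with everolimus against vehicle 4 lie left, and the comparison between the drugs separates *Tfrc* (-1.04), *Trf* (-1.44) and *Slc11a2* (-0.55) from *Hamp* (1.81).

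The comparisons of the 2 drugs with vehicle share the vehicle libraries, so the drugs were also compared directly. With MLN0128, transferrin receptor 1, transferrin and the divalent metal transporter were lower than with everolimus, and hepcidin was higher. Thus 1 of 10 genes was higher and 3 lower, where 3.99% of all tested genes were higher and 5.54% lower. Treat called 0 of the 10 and 0.0417% of all tested genes. By the moderated test 7 of the 10 had an unadjusted p under 0.05, again without a share of all tested genes to set it against. The groups did not overlap for 6 of the 10, against 27.7% of all tested genes, and the medians were -0.53 and -0.03. The count of 4 fell to 0 without MLN0128 replicate 1, to 0 without everolimus replicate 3 and to 2 without MLN0128 replicate 3.

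*Hamp* was 3.51-fold higher with MLN0128 than with everolimus (log2 fold change 1.81, SE 0.45, adjusted p = 0.031), with all MLN0128 libraries (88.3 to 191 FPKM) above all everolimus libraries (20 to 48.9 FPKM). MLN0128 replicate 3, which held no *Xist* RNA above 1 FPKM, was the lowest of its group at 88.3 FPKM and lay above every everolimus library. As 1 library cannot show the part of X content in the *Hamp* difference, that part was not tested. The call was lost in 8 of 24 alternatives, among them leaving out MLN0128 replicate 1 or 2 or everolimus replicate 1 or 3 (adjusted p from 0.0693 to 0.0976). With a term for *Xist* RNA the log2 fold change was 1.32, but that fit leaves MLN0128 replicate 3 alone to stand for its group. *Hamp2* varied more between these mice, at 3.02 and 10.5 FPKM in the libraries with *Xist* RNA and 0.143 FPKM, from 2 reads, in replicate 3.

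*Tfrc* was 2.06-fold lower with MLN0128 than with everolimus (log2 fold change -1.04, SE 0.29, adjusted p = 0.0477), a call that 18 of 24 alternatives ended (adjusted p from 0.0203 to 1). *Slc11a2* was 1.46-fold lower (log2 fold change -0.55, SE 0.12, adjusted p = 0.019) and *Trf* 2.71-fold lower (-1.44, SE 0.34, adjusted p = 0.0265), and each of these calls was lost in 7 of 24 alternatives. Without MLN0128 replicate 1 or everolimus replicate 3 the adjusted p was 0.0737 or 0.0828 for *Slc11a2* and 0.0707 or 0.0724 for *Trf*, and without MLN0128 replicate 3 it was 0.0551 for *Trf*. In these 3 genes the drug groups did not overlap. Erythroid markers, whose cells are rich in *Tfrc*, were also lower with MLN0128 for 4 of 6 tested. Their sums were 17.6 to 41.7 FPKM with MLN0128 and 108.2 to 132.4 FPKM with everolimus. Of the same 6 markers, 5 were lower with vehicle than in normal liver, where *Tfrc* rose. Against vehicle, 2 were higher with everolimus, where *Tfrc* had no call, and 1 was lower with MLN0128, where *Tfrc* fell. Their part in any *Tfrc* difference was not tested. *Ftl1* (-0.75, 95% interval -1.23 to -0.26, adjusted p = 0.055), *Slc40a1* (-0.70, interval -1.21 to -0.18, adjusted p = 0.084), *Fth1* (-0.41, interval -0.91 to 0.09, adjusted p = 0.274) and *Steap3* (-0.51, interval -0.99 to -0.04, adjusted p = 0.154) were not called. Nor were *Tfr2* (0.08, interval -0.27 to 0.44) and *Hfe* (0.08, interval -0.22 to 0.37).

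The other iron lists were counted for the drugs against vehicle. Of 25 tested genes of hepcidin control, 0 were higher and 4 lower with MLN0128 than with vehicle (*Id1*, *Neo1*, *Smad1* and *Fkbp1a*), and 0 higher and 1 lower with everolimus (*Neo1*, which encodes neogenin). Treat called 0, and 5 and 8 had an unadjusted p under 0.05 by limma, without a share of all tested genes to set them against. With TPM scaling the counts higher and lower were 0 and 1 with MLN0128, where *Id1* alone kept its call, and 0 and 2 with everolimus. Of 15 tested genes of iron and heme uptake, 1 was higher and 3 lower with MLN0128 (1 and 1 with TPM scaling) and 0 and 1 with everolimus. With MLN0128 these were *Slc39a14* (0.46, adjusted p = 0.0471), *Hpx* (-1.26, adjusted p = 0.0484, and 0.115 with TPM scaling), *Ltf* (-0.81, adjusted p = 0.00141) and *Slc39a8* (-0.50, adjusted p = 0.0111, and 0.104 with TPM scaling), and with everolimus *Ltf* (-0.89, adjusted p = 0.00294). Of 12 genes of heme synthesis and breakdown, 1 was higher and 5 lower with MLN0128, against 2 and 1 with TPM scaling, 2 and 3 with plain library totals and 1 and 4 with quantile normalization, and 0 were higher and 2 lower with everolimus (*Hmox1* and *Fech*). *Hmox1* fell under both drugs, to 5.55, 3.8 and 9.17 FPKM with MLN0128 (log2 fold change -2.60, adjusted p = 0.000708) and to 7.26, 15.6 and 10.7 FPKM with everolimus (-1.82, adjusted p = 0.0138), from 28.8 to 50.4 FPKM with vehicle. No treated library reached the lowest vehicle library. Of 6 tested storage and export partners, 0 were higher and 2 lower with each drug, *Abcg2* and *Ncoa4*, and with MLN0128 the other scalings added 1 that was higher. *Abcg2*, an exporter of porphyrins, was at 3.88, 5.52 and 4.02 FPKM with MLN0128 and 6.37, 7.28 and 5.78 FPKM with everolimus, under all vehicle libraries (9.62 to 14.8 FPKM). It fell by 1.31 with MLN0128 (adjusted p = 0.000301, called by treat as well) and by 0.86 with everolimus (adjusted p = 0.00834). *Ncoa4* was at 7.74, 8.94 and 7.82 FPKM with MLN0128 and 8.85, 10.3 and 10.7 FPKM with everolimus, under all vehicle libraries (13.1 to 14.6 FPKM), and fell in both comparisons (log2 fold changes -0.71 and -0.45, adjusted p = 0.00114 and 0.0311, the second without its call at 0.0746 with TPM scaling). Next in size with MLN0128 was *Blvrb*, which fell by 0.92 (adjusted p = 0.0112, and 0.0564 with TPM scaling), and *Hmox2* fell by 0.59 (adjusted p = 0.0115, and 0.0582 with TPM scaling). *Alas1* fell with MLN0128 (-0.76, adjusted p = 0.0208, and 0.139 with TPM scaling) and had no call with everolimus (-0.45, adjusted p = 0.211). *Aco1*, *Ireb2* and *Fbxl5* had no call with either drug, with 0 of 3 also at an unadjusted p under 0.05 and 0 by treat, though *Ireb2* was higher with MLN0128 under TPM scaling (0.32, adjusted p = 0.0453). Of 22 tested genes of mitochondrial iron and iron-sulfur clusters, 3 were higher and 5 lower with MLN0128 and 0 higher and 1 lower with everolimus, but the balance with MLN0128 turned to 6 higher and 2 lower with TPM scaling, 6 and 3 with plain library totals and 5 and 3 with quantile normalization. *Hscb*, a cochaperone of cluster transfer, was higher with MLN0128 (0.93, adjusted p = 0.000932), and *Ciapin1* was lower (-0.88, adjusted p = 0.00051) as it was with everolimus (-0.43, adjusted p = 0.0479, and 0.053 with TPM scaling). *Iscu*, the cluster scaffold, was at 13.1, 18.1 and 17.5 FPKM with MLN0128 against 26.9 to 30.8 FPKM with vehicle (log2 fold change -0.83, adjusted p = 0.00108). *Fdxr*, the reductase that passes electrons to ferredoxins, was higher (0.81, adjusted p = 0.00626).

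The treated tumors were last set against normal liver, a comparison that shares its libraries with those above. With MLN0128, 2 of 10 genes were higher (*Tfrc* and *Steap3*) and 7 lower, where 37.1% of all tested genes were higher and 35.5% lower. With everolimus, 3 were higher (*Tfrc*, *Slc11a2* and *Steap3*) and 6 lower, where 35.9% were higher and 34.3% lower. Under the other scalings 3 or 4 were higher and 6 lower with MLN0128, and 3 or 4 higher and 5 lower with everolimus. The *Steap3* call with MLN0128 was lost without normal liver replicate 3 (adjusted p = 0.0898) or MLN0128 replicate 2 (0.0873). *Tfrc* remained 2.85-fold above normal liver with MLN0128 (adjusted p = 0.000622) and 5.85-fold with everolimus (adjusted p = 1.09e-05), with no overlap. *Hamp* was 9.45-fold lower with MLN0128 (adjusted p = 4.63e-05) and 33.2-fold lower with everolimus (adjusted p = 1.48e-06). *Trf* was 14.1-fold lower with MLN0128 and 5.19-fold lower with everolimus. *Slc11a2* with MLN0128 overlapped with normal liver (log2 fold change -0.12, 95% interval -0.37 to 0.14, adjusted p = 0.394), and *Fth1* with everolimus had no call (-0.44, interval -0.93 to 0.06, adjusted p = 0.106). The directions of *Fth1* in both drug groups and of *Slc11a2* with MLN0128 against normal liver turned under other scalings.

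The order of group means was normal liver, MLN0128, everolimus and vehicle from lowest to highest for *Tfrc*, and *Tfr2* had the reverse order. For *Tfr2*, however, the everolimus libraries overlapped with those of MLN0128 and of vehicle, and neither of these differences was called. Along the *Tfrc* order normal liver and MLN0128, MLN0128 and everolimus, and everolimus and vehicle each lay apart library by library, but the step from everolimus to vehicle was not called. For *Hamp* the order was everolimus, MLN0128, vehicle and normal liver, and MLN0128 and vehicle did not differ beyond their spread. By the mean absolute difference of centred log2 values over the 12 libraries, the genes most like *Tfrc* were *Gga2* (0.269), *Slc20a1* (0.330) and *Nipal1* (0.336). *Gga2*, a sorting adaptor of the trans-Golgi network, ran from 1.82 to 2.12 FPKM in normal liver, 22.9 to 30.1 FPKM with vehicle, 9.84 to 12.8 FPKM with MLN0128 and 15.6 to 25.7 FPKM with everolimus. The genes most like *Hamp* were *Sec14l4* (0.455), *Tmprss6* (0.490) and *Aldh1l1* (0.505). *Tmprss6*, listed above at 231 to 296 FPKM in normal liver, is itself one of the genes of hepcidin control.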

How the data were processed

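The authors had libraries made and sequenced by Novogene from RNA extracted with the Quick-RNA Miniprep Kit, counted reads per Ensembl gene, mapped them to Entrez identifiers and added symbols with org.Mm.eg.db. The submitters' processing notes name FastQC 0.11.7 and the build GRCm38. The aligner and the gene lengths are not given in the sources used here, and per the labels RNA was selected by polyA capture or rRNA removal. The deposited values are linear FPKM made by the authors, rounded to 3 significant digits, with a scaling between libraries beyond total reads. A count test was not run on them.

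A gene was tested where 3 or more of the 12 libraries reached 0.5 FPKM (14397 of 17007). Values were taken as log2(FPKM + 1), and all 12 libraries entered 1 limma fit (limma 3.58.1, R 4.3.3) with an intensity trend in the prior variance and 8 residual degrees of freedom. Calls used the moderated test at a Benjamini-Hochberg adjusted p under 0.05, beside limma's treat, which tests against 1.5-fold, the counterpart of the authors' edgeR glmTreat. The fit was tested on simulated data. Exon lengths, positions and identifiers came from GENCODE M21 of GRCm38, which matched 16864 symbols, and a further 22 had been turned into dates. FPKM times exon length lay within 0.1 of a whole read for 95.3% to 98.0% of values under 20 reads. At these depths 3 reads on 2 kb are 0.0497 to 0.144 FPKM, and the 10 iron genes rested on 154 to 254414 reads. Each library is 1 mouse per the sources, and both sexes were used. The methods and labels give 3 weeks of treatment and the study's results text gives 3 days, and libraries were used as labelled.

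The 10 genes and the lists of other iron genes and of cell markers were chosen with earlier results of these data known. All 10 are named. From each list of other iron genes the text names, in vehicle against normal liver and in each drug against vehicle, the called genes with the largest absolute log2 fold change, at most 4 a list (the lists' genes in other comparisons were left out), and direct partners of the 10 genes, with exceptions stated. The genes most like *Tfrc* and *Hamp* are the 3 with the smallest mean absolute difference of centred log2 values. Lists were given by counts and medians with no set test. *Hjv* and *Hfe2*, *Erfe* and *Fam132b*, *Fdx2* and *Fdx1l*, and *Ciao2b* and *Fam96b* are older and newer symbols of the same genes. Protein sequences were not analysed here. Python 3.11.15, pandas 2.3.3 and matplotlib 3.10.9 were used.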

Additional observations from a re-analysis of the deposited data

How the results depend on the processing

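Each iron gene was refitted in 6 comparisons under 24 alternatives: another pseudocount, filter, scaling, prior variance or test, voom on the recovered reads, only the 2 groups compared, a replicate block, a term for *Xist* RNA, and each library left out. Scaling mattered most against normal liver, where TPM scaling moved the all-gene median (log2) in vehicle-treated tumors by 0.94, plain library totals by 0.56 and quantile normalization by -0.02. Relative to the all-gene median under the same setting, *Ftl1* stayed lower with TPM scaling and plain library totals but was higher with quantile normalization (0.65 against a median of 0.04). With TPM scaling the log2 fold change turned to 0.61 for *Ftl1* with vehicle, 0.59 and 0.75 for *Fth1* with MLN0128 and everolimus and 1.23 for *Slc11a2* with MLN0128, all against normal liver, and to 0.21 for *Steap3* with MLN0128 against vehicle. With quantile normalization these were 0.65 for *Ftl1*, 0.88 and 1.25 for *Fth1* and 0.035 for *Steap3*, and with plain library totals 0.34 for *Ftl1*, 0.24 and 0.51 for *Fth1*, 0.82 for *Slc11a2* and 0.12 for *Steap3*. In the fit with the *Xist* term MLN0128 rests on replicate 3 alone, so only log2 fold changes are given. There *Hamp* turned to -0.45 with MLN0128 against vehicle. *Tfr2* turned to -0.12, *Fth1* to 0.024 and *Hfe* to -0.041 with MLN0128 against everolimus, and *Slc11a2* to 0.021 with MLN0128 against normal liver.

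Of the 10 genes, the number called in vehicle-treated tumors against normal liver was 10, and 6 by treat. It was 8 with MLN0128 against vehicle, and 1 by treat. With everolimus against vehicle it was 4, and 2 with TPM scaling, 2 with quantile normalization, 0 by treat and 1 with only the 2 groups compared. With MLN0128 against everolimus it was 4, and 1 with TPM scaling, 2 with plain library totals, 0 by treat and 0 with only the 2 groups compared. The cause was not tested, except that treat asks for a larger change and the 2-group fits have fewer libraries. Leaving out 1 library at a time gave 8 to 10, 6 to 8, 0 to 5 and 0 to 4 calls in the same order, 8 to 9 with MLN0128 against normal liver and 9 with everolimus against it. In these fits the log2 fold changes without a call ran from -0.46 to 0.40 for *Hamp* and -0.26 to 0.18 for *Steap3* (MLN0128 against vehicle), -0.090 to 0.23 for *Tfr2* and -0.010 to 0.21 for *Hfe* (MLN0128 against everolimus), and -0.18 to 1.28e-05 for *Slc11a2* (MLN0128 against normal liver).

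The replicate numbers share only a number: of 18 same-numbered pairs of libraries from different groups, 1 had a correlation of deviations over 0.1 (range -0.29 to 0.15), and 1 of 12 libraries correlated best with its own number. With the number as a replicate block, 1 gene was called with everolimus against vehicle and 2 with MLN0128 against everolimus. Depth does not limit these genes except *Hamp2*, which rested on 0 to 3 reads with everolimus and on 2 reads in MLN0128 replicate 3.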
